A study of Mus musculus with 6 samples.

Results

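The genes described here are 35 regulators and enzymes of the antioxidant system and of the NADPH supply that feeds it. They were chosen by symbol, from a list grouped by role, and all 35 were found among the 18543 genes of the deposited count table, spread over 16 chromosomes. They were measured by RNA sequencing of group 2 innate lymphoid cells (ILC2s), tissue lymphocytes that answer IL-33 with type 2 cytokines. The cells were sorted from lungs of C57BL/6 mice aged 8 weeks that had received 0.5 µg recombinant mouse IL-33 by the nose on each of 3 days, with isolation on day 4, so that every library comes from stimulated cells. A wild-type group and an Atg5-/- group had 3 libraries each, here named WT 1 to WT 3 and KO 1 to KO 3 after their labels. The sources used here do not give the cells in which Atg5 is deleted, the deleted exons, any Cre driver or any pooling of animals. Nor do they tie each library to a separate animal, and the p-values therefore measure a spread between libraries that may be technical.

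Cells keep hydrogen peroxide and superoxide low with enzymes that draw their electrons from NADPH, either through thioredoxin or through glutathione. The transcription factor NRF2, encoded by Nfe2l2, switches many of these enzymes on. KEAP1 captures NRF2 and passes it to ubiquitin-dependent degradation, and the autophagy receptor p62 can bind KEAP1 and so free NRF2, which is why the pathway is often followed when autophagy is impaired. NADPH itself comes largely from the pentose phosphate pathway, of which several enzymes are also NRF2 targets.

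The targeted gene was at odds with the labels of WT 3 and KO 3. Atg5 had 66.3, 71.8 and 21.8 CPM (estimated counts scaled to TMM-adjusted library totals) in WT 1 to WT 3, and 23.0, 25.6 and 52.2 CPM in KO 1 to KO 3. The library labelled WT 3 thus lay below every library labelled knockout, and KO 3 lay between the others of its label and WT 1, so each direction below is one between labels. Fitted differences are given with and without WT 3. Library totals were 28827545 to 33662979 estimated counts, at which 3 counts are 0.0891 to 0.104 CPM. ILC2 markers other than Thy1 and Il17rb were abundant, but the sum over all 9 was split by library as many antioxidant genes were. It was 6338 and 6256 CPM in WT 1 and WT 2 and 4130 to 4460 CPM in the other 4. Klrg1, an ILC2 activation marker, was at 526 and 557 CPM in that pair and 121 to 174 CPM elsewhere. Gata3, Il1rl1, Rora, Il2ra, Icos and Thy1 (8.88 and 9.85 CPM there, 0.670 to 2.88 CPM elsewhere) were also higher in the pair. Il17rb (3.84 and 3.17 CPM there, 13.8 to 28.2 CPM elsewhere) and Il7r (95.5 and 93.1 against 97.9 to 106.5 CPM) were lower in it. The sum of T cell markers, mostly Cd3g, was also higher in WT 1 and WT 2 (40.2 and 41.6 CPM against 20.6 to 24.5 CPM). Cd3g was at 35.3 and 37.2 CPM there and 11.4 to 18.8 CPM elsewhere, while Cd3e, Cd3d, Cd4 and Cd8b1 were not split in this way. Macrophage and dendritic cell markers, mostly Cd68, were higher in WT 1 and WT 2 as well (both 11.7 CPM against 2.87 to 5.78 CPM). NK cell and ILC1 markers, all scarce, summed to 2.07 and 3.76 CPM in WT 1 and WT 2 and 0.520 to 1.05 CPM elsewhere. In this list Gzma and Prf1 were higher in the pair, while Eomes and Tbx21 were not. B cell markers reached 201 CPM in KO 3 through Ighm against 24.6 to 31.6 CPM elsewhere. The granulocyte and mast cell list, most of it Kit, summed to 71.1 CPM (WT 2), 85.4 CPM (WT 1) and 182 to 222 CPM (remaining libraries). The higher sums came from Kit. Cpa3 and Fcer1a of the same list went the other way. Cpa3 was at 8.98 CPM (WT 1), 5.73 CPM (WT 2) and 0.447 to 3.43 CPM (remaining libraries). Fcer1a was at 2.46, 1.93 and 0 to 0.497 CPM in the same order. Mcpt8, Cma1 and S100a9 were not split by this pair. Epithelial markers were at 52.3 and 58.2 CPM in WT 2 and WT 1 and 9.35 to 29.1 CPM elsewhere. They were mostly Epcam except in KO 2, where the airway secretory transcript Scgb1a1 was at 15.02 CPM and Epcam at 13.7 CPM, while Scgb1a1 was at 0 to 0.232 CPM in the other 5 libraries. In turn endothelial and stromal markers, nearly all Pecam1, were at 8.57 and 10.4 CPM in WT 2 and WT 1 against 91.9 to 131 CPM. Red cell markers, mostly Hba-a1, were at 5.44 and 5.46 CPM in WT 1 and WT 2 and 3.35 to 4.61 CPM elsewhere. The part of these cell mixtures in the results was not tested, and in RNA from sorted populations fewer cells of a type and less RNA per cell cannot be told apart.

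Most antioxidant transcripts were lowest in WT 1 and WT 2. In 24 of the 35 genes the 2 lowest values were those of WT 1 and WT 2, an order found in 29.6% of all 14052 genes tested, and in 5 genes (Txnip, Prdx4, Gpx1, Gpx4 and Glrx) they were the 2 highest, beside 28.2% of all genes. In the fit to all 6 libraries, the quasi-likelihood test of edgeR passed 0 of the 35 at an adjusted p under 0.05, as it passed 0 of 14052 genes (0%). DESeq2 on the same counts also passed 0 of the 35 while passing 2.3% of all genes, 0.107% higher and 2.19% lower. At an unadjusted p under 0.05 edgeR had 8 of the 35 beside 14.4% of all genes. The median log2 difference, knockout minus wild-type label, was 0.38 over the 35 and 0.02 over all genes. All knockout values lay above all wild-type values in 7 genes (Mafg, Nqo1, Gclm, Prdx1, Prdx6, Sod2 and Tkt) beside 9.26% of all genes, and below them in 0 beside 9.22%.

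On the log2 scale WT 3 lay nearer the knockout mean than the mean of WT 1 and WT 2 in 32 of the 35 genes. The same held for 76.3% of all genes tested. The choice to report fits without it was made with earlier results known. Such fits set WT 1 and WT 2 against the knockout label, and their calls are no independent support for a difference between labels. Without the library labelled WT 3, edgeR passed 23 of the 35, of which 20 rose and 3 fell (Txnip, Prdx4 and Glrx) under the knockout label. Across all 14743 genes of that fit 33.9% passed, 17.7% higher and 16.1% lower. The median log2 difference was 0.65 over the 35 and 0.02 over all genes. All 35 passed the filter on low counts in both fits. The count fell to 14 when WT 1 was also left out, where 14.3% of all genes passed, and to 16 without WT 2, where 15.9% passed, fits in which 1 wild-type library is assumed to vary like the others. Without both libraries numbered 3, edgeR passed 29 of the 35 (22 rose, 7 fell) where 45.4% of all genes passed, 22.7% in each direction. These fits share 4 libraries, so the one is no independent support for the other.

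**Figure D1:**
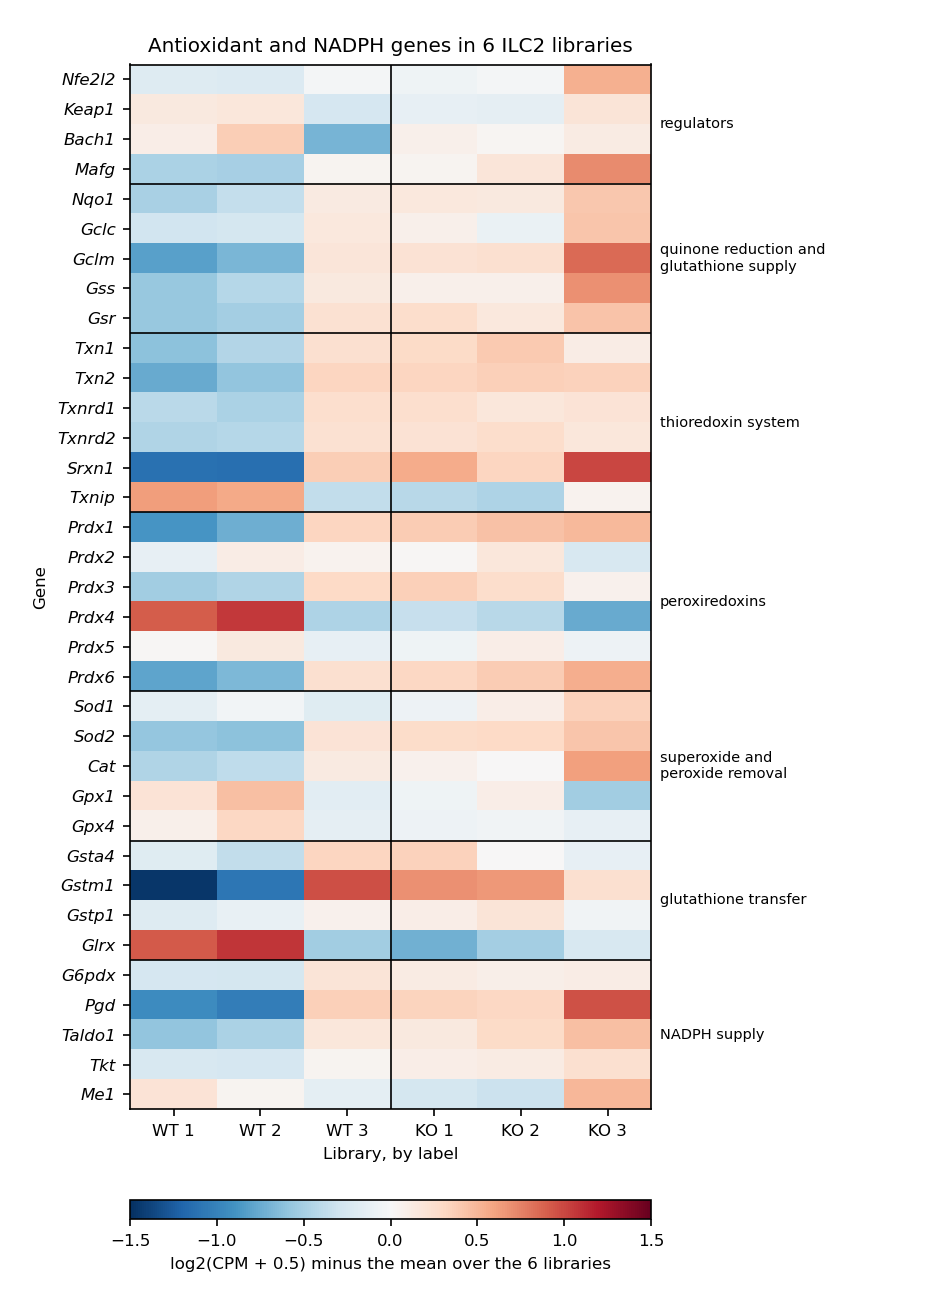
Level of each of the 35 genes (rows, grouped by role) in each library (columns), as log2(CPM + 0.5) minus the gene's mean over the 6 libraries, red high and blue low. WT 1 and WT 2 are blue in most rows, while WT 3 resembles the libraries labelled knockout, and KO 3 is the reddest in 18 rows.

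The NRF2 system reads a short DNA element, the antioxidant response element, whose core is TGACNNNGC. That core was searched on both strands of the promoter windows that RefSeq annotation gives on the GRCm38.p6 build, from 250 bases before to 50 bases after each annotated start. Of the 35 genes 31 matched a window (not Gclc, Gsr, Gsta4 or Prdx6), and 10 of these (32.3%) held the core in at least 1 window, beside 3781 of 27025 genes (14.0%) in the whole table, which also holds non-coding gene models. By window the core was in 10 of 40 (25.0%) and in 12.4% of all 32851. Of the 10 genes, 7 rose without WT 3 (G6pdx, Gclm, Mafg, Pgd, Prdx1, Srxn1 and Txnrd1) and 3 did not pass (Me1, Nfe2l2 and Sod1). Most matched genes rose in that fit, 18 of the 31. Of those 18, 38.9% held the core, beside the 32.3% of all 31, and a link between core and rise was not tested. The sequences are shown because they let the core be compared between genes of different role groups, those that rose and those that did not pass. Each is written 5′ to 3′ on the strand that reads the core, which is in capitals.
Prdx1: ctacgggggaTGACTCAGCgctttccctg
Gclm: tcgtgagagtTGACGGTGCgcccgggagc
Srxn1: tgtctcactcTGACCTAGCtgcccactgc
Txnrd1: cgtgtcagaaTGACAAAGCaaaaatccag
G6pdx: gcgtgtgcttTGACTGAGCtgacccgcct
Pgd: atttcagagcTGACATTGCactgatcgga
Mafg: ctcgccgggtTGACCGTGCtcctgcagag
Me1: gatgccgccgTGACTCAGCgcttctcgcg
Nfe2l2: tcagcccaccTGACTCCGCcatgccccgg
Sod1: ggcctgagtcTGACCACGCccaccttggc

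The Prdx1 stretch lies at chr4:116685456-116685484 (reverse strand), with the core from 133 bases upstream of the start, and that of Gclm at chr3:122245413-122245441 (reverse strand), from 134 bases upstream. The Txnrd1 stretch is at chr10:82859104-82859132 (reverse strand) and belongs to 1 of 3 annotated starts. It lies inside the gene, whose 5′ end by the deposited coordinates is at 82833951. The G6pdx stretch is at chrX:74428919-74428947 (forward strand), also inside its gene, whose 5′ end is at 74429194. The Mafg stretch is at chr11:120633751-120633779 (forward strand), the farthest upstream of the risers at 222 bases. In Srxn1, at chr2:152105542-152105570 (reverse strand), and in Pgd, at chr4:149166061-149166089 (reverse strand), the core begins downstream of the annotated start, by 28 and 3 bases. The start used for Pgd lies inside the gene, whose 5′ end by the deposited coordinates is at 149166771. Of those that did not pass, Me1 has the core across its start at chr9:86695902-86695930 (reverse strand), Nfe2l2 at chr2:75704885-75704913 (reverse strand) and Sod1 at chr16:90220696-90220724 (reverse strand). Prdx1 and Me1 carry the same 9 bases, which also contain TGACTCA, the motif of AP-1, yet Prdx1 rose without WT 3 and Me1 did not pass. Nqo1 held no core in its window. A match describes these letters and shows no binding.

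Among the regulators, the transcript of NRF2 itself differed little between 5 of the 6 libraries. Nfe2l2 was at 83.0, 82.0 and 92.8 CPM in WT 1 to WT 3 and at 90.4, 93.1 and 137 CPM in KO 1 to KO 3. KO 3 stood alone above the rest, and KO 1 lay below WT 3. The log2 difference was 0.31 (SE 0.19, edgeR adjusted p = 0.398) with all libraries and 0.38 (SE 0.19, adjusted p = 0.167) without WT 3. Mafg encodes a small MAF protein, the partner with which NRF2 binds DNA. Its values were 87.4, 85.9 and 125 CPM under the wild-type label and 125, 138 and 199 CPM under the knockout label, with WT 3 just below KO 1. Mafg rose by 0.84 without WT 3 (SE 0.20, edgeR adjusted p = 0.0159), against 0.63 with all libraries (SE 0.24, adjusted p = 0.342).

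Keap1, the adaptor that holds NRF2 in check, was at 139, 141 and 105 CPM in WT 1 to WT 3 and at 115, 114 and 144 CPM in KO 1 to KO 3. KO 3 and the first 2 libraries were alike and the other 3 lower, so the labels overlapped. The log2 difference was -0.05 with all libraries (SE 0.17, edgeR adjusted p = 0.893) and -0.16 without WT 3 (SE 0.12, adjusted p = 0.350), and Keap1 fell by 0.28 without both libraries numbered 3 (SE 0.07, adjusted p = 0.0124). Bach1, a repressor that competes with NRF2 for the same elements, was the least abundant regulator, at 4.23, 5.17 and 2.22 CPM and then 4.16, 3.99 and 4.31 CPM. It did not pass in any of the 3 edgeR fits (adjusted p = 0.893, 0.671 and 0.638).

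Of the 5 enzymes of quinone reduction and of glutathione supply, 4 rose under the knockout label when WT 3 was left out. Gclm, on chromosome 3 from 122245557 to 122270732 (mm10, forward strand), encodes the modifier subunit of glutamate-cysteine ligase, the enzyme that limits glutathione synthesis. It was at 144, 156 and 287 CPM in WT 1 to WT 3 and at 295, 299 and 457 CPM in KO 1 to KO 3. The labels did not overlap, but WT 3 lay next to KO 1 and KO 2 and far from WT 1 and WT 2. Gclm rose by 1.23 without WT 3 (SE 0.20, edgeR adjusted p = 0.00368), a fold of 2.35, against 0.84 with all libraries (SE 0.32, adjusted p = 0.342). Gclc, the catalytic subunit of the same ligase, showed a smaller difference, with 242 and 247 CPM in WT 1 and WT 2, 330 CPM in WT 3 and 277 to 395 CPM in KO 1 to KO 3. It did not pass without WT 3 (log2 difference 0.43, SE 0.15, edgeR adjusted p = 0.0651), and had a difference of 0.27 with all libraries (SE 0.20, adjusted p = 0.481). It rose by 0.28 without both libraries numbered 3 (SE 0.08, edgeR adjusted p = 0.016).

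Gss, which adds glycine to complete glutathione, was at 34.5, 38.0 and 56.7 CPM and then 54.2, 54.2 and 82.7 CPM. KO 3 was again the highest, and WT 3 exceeded KO 1 and KO 2. Without WT 3 it rose by 0.82 (SE 0.21, edgeR adjusted p = 0.0215), and with all libraries its difference was 0.57 (SE 0.26, adjusted p = 0.350). Gsr, the reductase that regenerates glutathione with NADPH, was at 274 and 286 CPM in WT 1 and WT 2, 478 CPM in WT 3 and 455 to 548 CPM in KO 1 to KO 3, and rose by 0.84 in the fit without WT 3 (SE 0.10, edgeR adjusted p = 0.00111), against 0.52 with all libraries (SE 0.25, adjusted p = 0.354). Nqo1, a quinone reductase often used as a readout of NRF2, was at 382, 418 and 592 CPM and then 601, 595 and 712 CPM. The smallest knockout value was just above WT 3. Nqo1 rose by 0.67 without WT 3 (SE 0.11, edgeR adjusted p = 0.00345) and had a difference of 0.45 with all libraries (SE 0.21, adjusted p = 0.352).

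In the thioredoxin system all 6 genes passed without WT 3, and 5 rose, from both the cytosolic and the mitochondrial arm. Txn1, cytosolic thioredoxin, had the highest level per length of all 35 genes, at 450 CPM per kilobase of annotated exon (mean of 6 libraries), and Txn2, its mitochondrial counterpart, had 57.8. Txn2 was at 127, 142 and 268 CPM in WT 1 to WT 3 and at 268, 274 and 272 CPM in KO 1 to KO 3. Its 3 knockout values were nearly equal, and WT 3 was level with them. It rose by 1.02 without WT 3 (SE 0.09, edgeR adjusted p = 0.000318), against 0.60 with all libraries (SE 0.29, adjusted p = 0.356). Txn1 rose by 0.80 (SE 0.11, edgeR adjusted p = 0.0019), from 300 and 338 CPM in WT 1 and WT 2 to 496 to 604 CPM under the knockout label, with WT 3 at 543 CPM. Its difference with all libraries was 0.49 (SE 0.25, edgeR adjusted p = 0.363).

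The reductases that recharge thioredoxin moved by similar amounts. Txnrd1, the cytosolic selenoenzyme, was at 728 and 691 CPM in WT 1 and WT 2 and within 1085 to 1146 CPM in the other 4 libraries, and rose by 0.65 without WT 3 (SE 0.08, edgeR adjusted p = 0.00101). Txnrd2, the mitochondrial form, was at 25.8 and 26.2 CPM against 39.8 to 42.6 CPM in the other 4, and rose by 0.67 (SE 0.12, edgeR adjusted p = 0.0048). With all libraries the differences of Txnrd1 and Txnrd2 were 0.38 (SE 0.23, edgeR adjusted p = 0.395) and 0.40 (SE 0.21, adjusted p = 0.371). Srxn1, sulfiredoxin, repairs overoxidised peroxiredoxins, and lies on chromosome 2 from 152105516 to 152111376 (forward strand). It had 86.5, 85.7 and 244 CPM in WT 1 to WT 3 and 276, 235 and 377 CPM in KO 1 to KO 3. WT 3 lay inside the knockout range, between KO 2 and KO 1. Srxn1 rose by 1.79 without WT 3 (SE 0.20, edgeR adjusted p = 0.000714), a fold of 3.46, against 1.09 with all libraries (SE 0.44, adjusted p = 0.342).

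Txnip, which binds and blocks thioredoxin and restrains glucose uptake, had the opposite order. It was at 142, 137 and 71.4 CPM under the wild-type label and at 69.2, 66.7 and 95.4 CPM under the knockout label. WT 1 and WT 2 were the highest, and WT 3 fell among the knockout values. Txnip fell by 0.85 without WT 3 (SE 0.16, edgeR adjusted p = 0.00643) and by 1.03 without both libraries numbered 3 (SE 0.08, adjusted p = 6.82e-06), while with all libraries the difference of -0.60 (SE 0.29, adjusted p = 0.355) did not pass.

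The 6 peroxiredoxins, which reduce peroxides with electrons from thioredoxin or glutathione, split by gene. Without WT 3 edgeR had 3 that rose (Prdx1, Prdx3 and Prdx6), 1 that fell (Prdx4) and 2 that did not pass (Prdx2 and Prdx5). Prdx1, an abundant cytosolic form, was at 566, 630 and 1310 CPM in WT 1 to WT 3 and at 1367, 1422 and 1469 CPM in KO 1 to KO 3. The lowest knockout value exceeded WT 3 by a small margin, and the other wild-type libraries were far below. Prdx1 rose by 1.25 without WT 3 (SE 0.09, edgeR adjusted p = 0.000149), a fold of 2.38, against 0.76 with all libraries (SE 0.33, adjusted p = 0.346). Prdx6, the member that uses glutathione, was at 449, 489 and 923 CPM and then 965, 1011 and 1133 CPM, in the same order. It rose by 1.15 without WT 3 (SE 0.10, edgeR adjusted p = 0.000306), against 0.74 with all libraries (SE 0.30, adjusted p = 0.342).

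Prdx4 is the peroxiredoxin of the endoplasmic reticulum, where it supports oxidative protein folding. It was at 170, 189 and 65.4 CPM under the wild-type label and at 71.0, 67.1 and 53.0 CPM under the knockout label. The knockout values and WT 3 formed a narrow band well below WT 1 and WT 2. Prdx4 fell by 1.49 without WT 3 (SE 0.14, edgeR adjusted p = 0.000356) and had a difference of -1.15 with all libraries, which did not pass (SE 0.38, adjusted p = 0.342). Prdx3, the mitochondrial form, was at 101 and 106 CPM in WT 1 and WT 2 and 152 to 186 CPM in the other 4, and rose by 0.73 without WT 3 (SE 0.11, edgeR adjusted p = 0.00264), against 0.41 with all libraries (SE 0.24, adjusted p = 0.398). Prdx2 and Prdx5 spanned only 151 to 201 CPM and 108 to 130 CPM over the 6 libraries, and their log2 differences without WT 3 were -0.0021 (SE 0.14) and -0.09 (SE 0.10), and with all libraries -0.03 (SE 0.16) and -0.03 (SE 0.13).

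**Figure D2:**
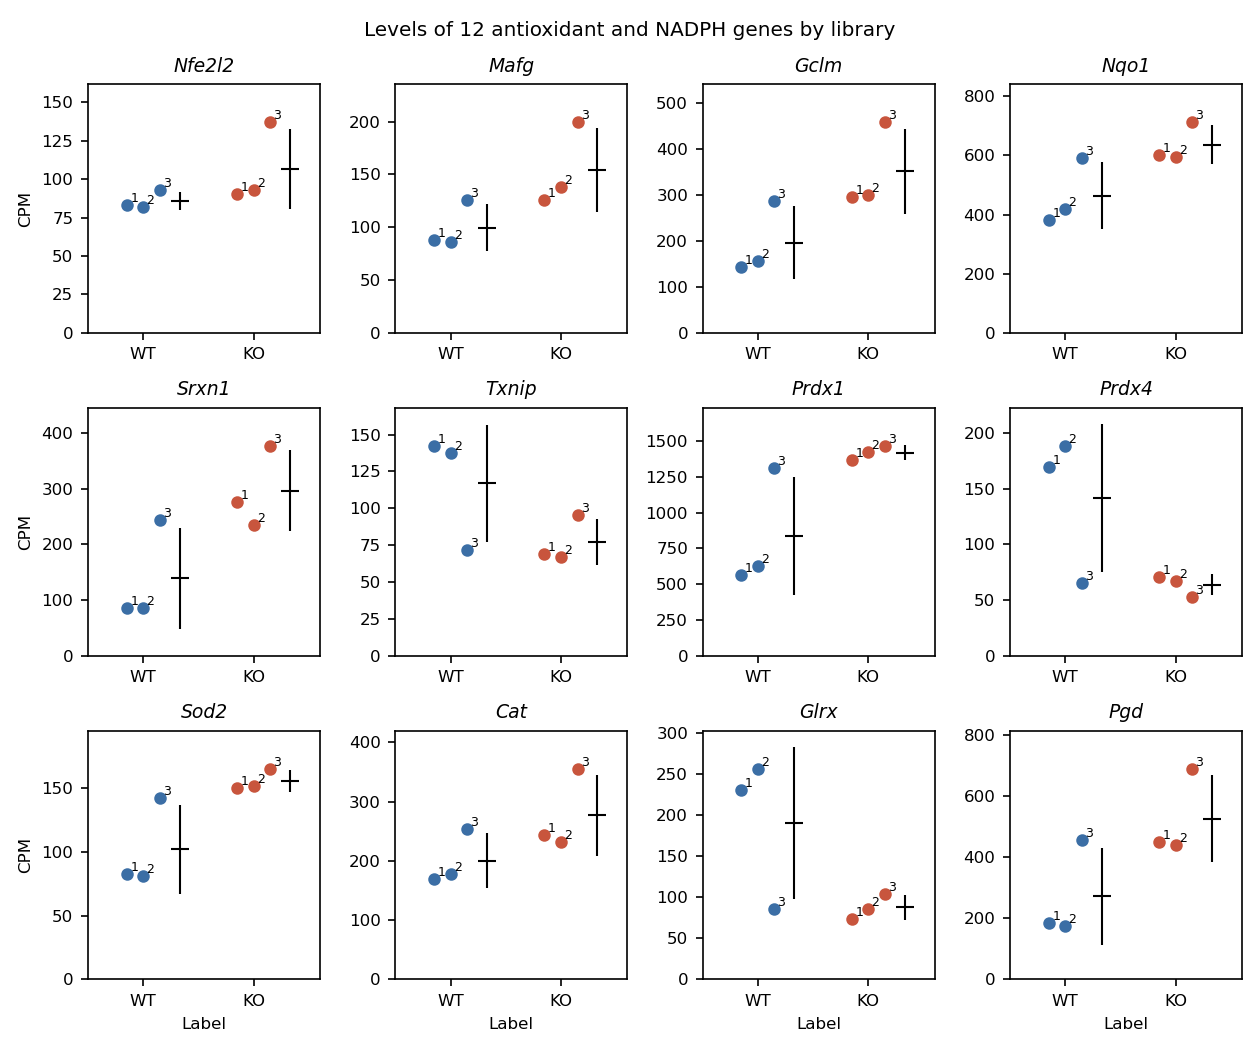
CPM of 12 of the genes in each library (points, numbered by replicate; blue wild-type label, red knockout label), with group mean ± SD (black, n = 3) and a linear axis from 0. In Srxn1, Txnip, Prdx4, Glrx and Pgd the point of WT 3 is among or close to those of KO 1 and KO 2, and KO 3 is the highest point in Nfe2l2, Mafg, Gclm, Nqo1, Srxn1, Prdx1, Sod2, Cat and Pgd.

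Of the enzymes that remove superoxide and peroxide, 2 of 5 rose without WT 3 and 3 did not pass. Sod2, mitochondrial superoxide dismutase, was at 82.4, 80.7 and 143 CPM in WT 1 to WT 3 and at 150, 152 and 165 CPM in KO 1 to KO 3. The labels were separated by a small gap between WT 3 and KO 1. Sod2 rose by 0.94 without WT 3 (SE 0.09, edgeR adjusted p = 0.000446), against 0.61 with all libraries (SE 0.24, adjusted p = 0.342). Sod1, the cytosolic dismutase, was at 129, 139 and 126 CPM and then 135, 154 and 182 CPM, with overlapping labels. It passed in neither fit (log2 difference 0.26, SE 0.15, edgeR adjusted p = 0.390 with all libraries, and 0.23, SE 0.13, adjusted p = 0.227 without WT 3).

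Cat, peroxisomal catalase, was at 170, 178 and 253 CPM and then 243, 231 and 355 CPM. KO 3 was the highest and WT 3 above the other 2 knockout libraries. Cat rose by 0.68 without WT 3 (SE 0.19, edgeR adjusted p = 0.0307), against 0.47 with all libraries (SE 0.24, adjusted p = 0.366). The selenoenzymes Gpx1, which reduces hydrogen peroxide, and Gpx4, which reduces lipid peroxides and guards against ferroptosis, were both highest in WT 1 and WT 2. Gpx1 was at 283 and 335 CPM there and 171 to 262 CPM in the other 4 libraries (log2 difference -0.46 without WT 3, SE 0.18, edgeR adjusted p = 0.0881). Gpx4 was at 268 and 316 CPM against 232 to 246 CPM (-0.28, SE 0.10, edgeR adjusted p = 0.0693). With all libraries the differences of Gpx1 and Gpx4 were -0.32 (SE 0.23, edgeR adjusted p = 0.448) and -0.18 (SE 0.16, adjusted p = 0.535). Both fell without both libraries numbered 3, by 0.30 (edgeR adjusted p = 0.0243) and 0.25 (adjusted p = 0.0376).

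The genes that join glutathione to other molecules, or take it off proteins, did not move as one: without WT 3, 1 rose, 1 fell and 2 did not pass. Gstm1, a mu-class glutathione transferase on chromosome 3 from 108012255 to 108017973 (reverse strand), was at 32.1, 41.5 and 174 CPM in WT 1 to WT 3 and at 144, 139 and 105 CPM in KO 1 to KO 3. WT 3 was the highest of all 6 libraries and KO 3 the lowest under its label. Gstm1 rose by 1.82 without WT 3 (SE 0.18, edgeR adjusted p = 0.000465), a fold of 3.53, whereas with all libraries its difference was 0.65 (SE 0.61, adjusted p = 0.564). Glrx, glutaredoxin, which frees protein thiols from glutathione, was at 230, 256 and 85.0 CPM and then 73.7, 85.2 and 103 CPM. Again WT 3 was among the knockout values. Glrx, on chromosome 13 from 75839868 to 75850154 (forward strand), fell by 1.47 without WT 3 (SE 0.15, edgeR adjusted p = 0.000448), to a fold of 0.361, and had a difference of -1.12 with all libraries (SE 0.39, adjusted p = 0.342).

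Gstp1, the pi-class transferase, was nearly even, at 169, 179 and 202 CPM and then 207, 222 and 187 CPM. It did not pass without WT 3 (log2 difference 0.24, SE 0.10, edgeR adjusted p = 0.109) or with all libraries (0.16, SE 0.14, adjusted p = 0.539) but rose by 0.31 without both libraries numbered 3 (SE 0.07, adjusted p = 0.00747). Gsta4, an alpha-class transferase that handles products of lipid peroxidation, was scarce, at 2.46, 2.10 and 3.68 CPM and then 3.74, 2.86 and 2.58 CPM, and its difference did not pass without WT 3 (0.43, SE 0.35, edgeR adjusted p = 0.384) or with all libraries (0.16, SE 0.36, adjusted p = 0.822).

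For NADPH supply, all 4 pentose phosphate genes rose without WT 3, by amounts that differed along the pathway. Pgd, the second enzyme to produce NADPH in it, lies on chromosome 4 from 149149991 to 149166771 (reverse strand). It was at 184, 173 and 456 CPM in WT 1 to WT 3 and at 448, 440 and 690 CPM in KO 1 to KO 3. KO 3 was far above the rest, and WT 3 was level with KO 1 and KO 2. Pgd rose by 1.56 without WT 3 (SE 0.21, edgeR adjusted p = 0.0015), a fold of 2.96, against 0.96 with all libraries (SE 0.41, adjusted p = 0.346). G6pdx, which catalyses the first and rate-limiting step, was at 506 and 502 CPM in WT 1 and WT 2 and 641 to 686 CPM in the other 4, with WT 3 the highest. It rose by 0.37 without WT 3 (SE 0.08, edgeR adjusted p = 0.00897), against 0.20 with all libraries (SE 0.18, adjusted p = 0.536).

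Taldo1 and Tkt, which shuttle sugars between the pentose phosphate pathway and glycolysis, also differed in size. Taldo1 was at 245, 265 and 416 CPM and then 408, 452 and 507 CPM, and rose by 0.84 without WT 3 (SE 0.11, edgeR adjusted p = 0.00156). Tkt was at 398, 394 and 483 CPM and then 502, 512 and 554 CPM, so that the labels did not overlap. It rose by 0.41 in that fit (SE 0.08, edgeR adjusted p = 0.00961). With all libraries the differences of Taldo1 and Tkt were 0.56 (SE 0.23, edgeR adjusted p = 0.346) and 0.30 (SE 0.15, adjusted p = 0.366). Me1, malic enzyme, makes cytosolic NADPH by another route. It ranged from 43.3 CPM in KO 2 to 76.6 CPM in KO 3, with 49.2 to 62.5 CPM in WT 1 to WT 3, and did not pass with all libraries or without WT 3 (edgeR adjusted p = 0.963 and 0.798). It fell by 0.42 without both libraries numbered 3 (SE 0.11, edgeR adjusted p = 0.0112).

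**Figure D3:**
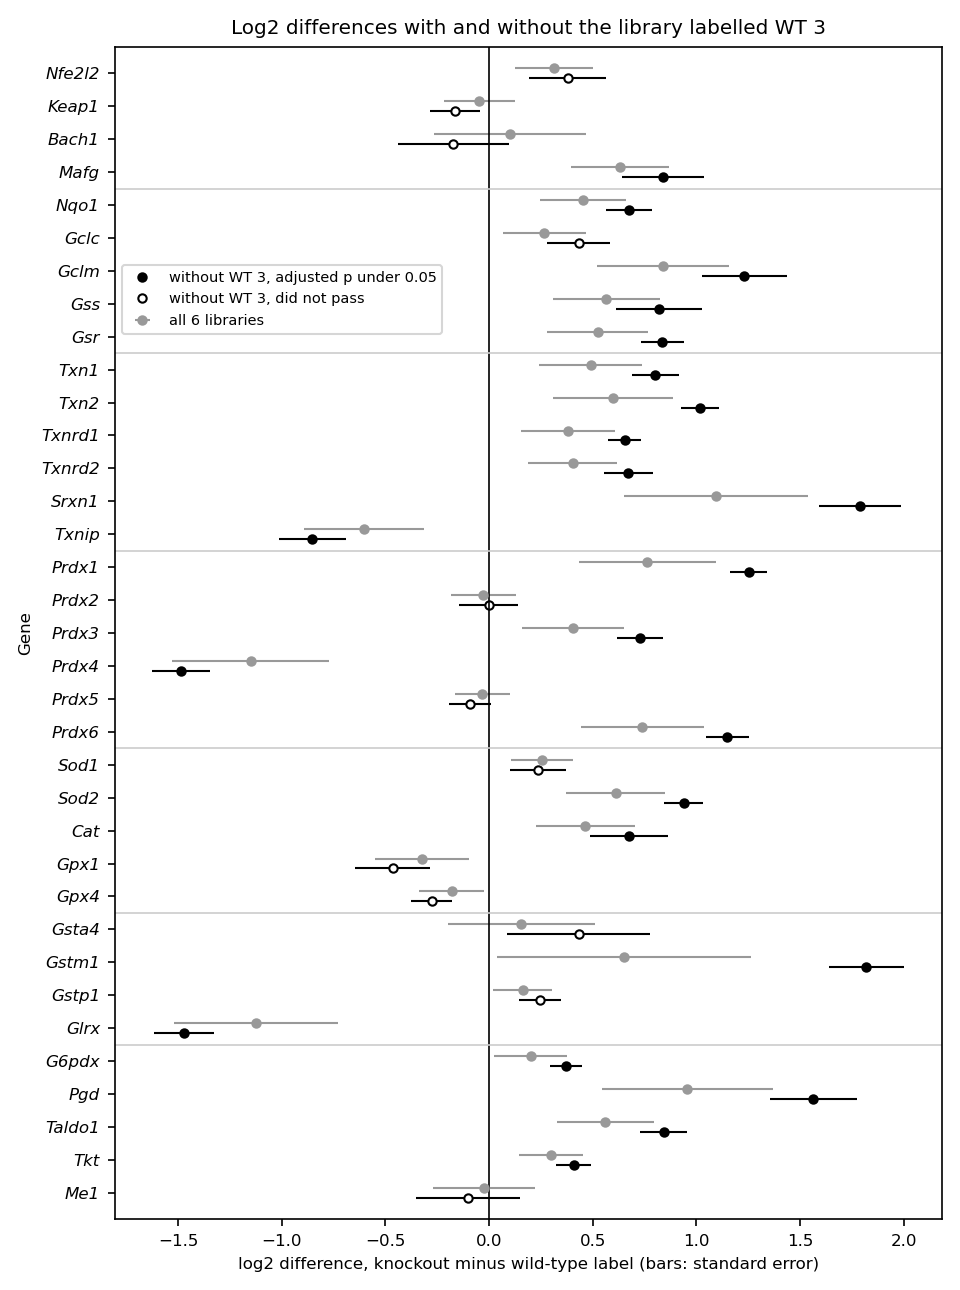
Log2 difference, knockout minus wild-type label, of each of the 35 genes with its standard error, from the edgeR fit to all 6 libraries (grey) and without WT 3 (black; filled circles passed at an adjusted p under 0.05). Filled circles number 20 to the right of 0 and 3 to the left, and no grey point passed.

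KO 3 stood at the upper end for many of the antioxidant genes. It was the highest of the 6 libraries in 18 of the 35 genes, beside 22.0% of all genes tested, and the lowest in 3 (Prdx2, Prdx4 and Gpx1), beside 20.3%. The 18 include 3 of the 4 regulators, all 5 genes of quinone reduction and glutathione supply and 4 of the 5 genes of NADPH supply. In the thioredoxin group the only one was Srxn1. WT 3 lay within the range of the 3 knockout values in 21 of the 35 genes, beside 55.8% of all genes, and between WT 1 and WT 2 in 1 (Prdx2), beside 13.8%. KO 3 was also the library with the B cell transcript Ighm at 194 CPM (7.82 to 17.3 CPM elsewhere) and with an Atg5 level nearer to WT 1 than to KO 1. Whether either has a part in its antioxidant levels was not tested.

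Other genes of the same pathways were followed through 95 symbols, of which 93 were in the table and 87 passed the filter on low counts with all libraries. EdgeR passed 0 of the 87 with all libraries (12 at an unadjusted p under 0.05, beside 14.4% of all genes), and DESeq2 also 0. All knockout values lay above all wild-type values in 5 of the 87 (5.75%) beside 9.26% of all genes. They lay below in 4 (4.60%) beside 9.22%. Without WT 3, 27 of 89 rose and 12 fell, beside 17.7% and 16.1% of all genes, with a median log2 difference of 0.15. That is 43.8% passing beside the 33.9% of all genes given above. The count of 39 fell to 18 when WT 1 was also left out and to 25 without WT 2, the fits in which 14.3% and 15.9% of all genes passed. Of the 12 that fell 6 were in 1 group: of 14 further glutathione transferases and peroxidases tested, 2 rose and 6 fell. Among these 6 was Mgst2, which failed the low-count filter with all libraries. Outside WT 1 and WT 2 it was at 0.232 CPM or less, so its entry into the test depended on that pair. The fall of Mgst2 is therefore no separate evidence for the direction of the group. The groups are small, and a count near 17.7% rising or 16.1% falling, the shares of all genes, is no result about its group. Of 10 genes of NRF2 control 4 rose and 0 fell, as in 10 genes of cystine uptake and glutathione turnover and in 16 of NADPH supply. Of 14 further NRF2 targets in heme, iron and detoxification 4 rose (Hmox1, Ftl1, Fth1 and Abcc1) and 2 fell, and their median difference was -0.15, and -0.10 with all libraries. The 2 that fell were the carbonyl reductase Cbr1 (by 0.84, SE 0.13, edgeR adjusted p = 0.00254) and the epoxide hydrolase Ephx1 (by 1.46, SE 0.31, adjusted p = 0.0109), and their differences with all libraries were -0.62 and -1.06 (SE 0.25 and 0.55, adjusted p = 0.343 and 0.366). Of 17 genes of thioredoxin, glutaredoxin and methionine repair 6 rose and 2 fell (Msrb2 and Sesn3), and of 8 of superoxide chaperone and selenium supply 3 rose and 2 fell.

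Sqstm1, which encodes p62, was far higher in KO 3 than elsewhere. It was at 625, 667 and 1560 CPM in WT 1 to WT 3 and at 1557, 1779 and 4242 CPM in KO 1 to KO 3, with WT 3 just above KO 1. Its log2 difference was 1.41 with all libraries (SE 0.52, edgeR adjusted p = 0.342), and it rose by 1.97 without WT 3 (SE 0.47, adjusted p = 0.0218). Hmox1, heme oxygenase, an NRF2 target that BACH1 represses, was at 114, 120 and 402 CPM and then 388, 398 and 633 CPM. Hmox1 rose by 2.02 without WT 3 (SE 0.23, edgeR adjusted p = 0.000767), a fold of 4.06, against 1.16 with all libraries (SE 0.52, adjusted p = 0.350). Slc7a11 encodes the cystine carrier that feeds glutathione synthesis. Its values were 4.95, 6.09 and 19.8 CPM and then 18.6, 22.4 and 44.6 CPM, and it rose by 2.38 without WT 3 (SE 0.41, edgeR adjusted p = 0.0044), against 1.48 with all libraries (SE 0.60, adjusted p = 0.342).

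Lowest in p with all libraries among the related genes with a mean of at least 5 CPM were Gpx7, Selenot, Msrb2, Txnl1, Mgst3 and Sqstm1. Each had an edgeR adjusted p of 0.342 in that fit, with log2 differences of -0.83 for Gpx7, 0.51 for Selenot, -0.89 for Msrb2, 0.59 for Txnl1 and -1.59 for Mgst3. Gpx7, a peroxidase of the endoplasmic reticulum like Prdx4, was at 25.8, 26.1 and 16.6 CPM and then 14.6, 13.4 and 10.5 CPM, so that the labels did not overlap, and it fell by 1.01 without WT 3 (SE 0.19, edgeR adjusted p = 0.00591). Msrb2, a mitochondrial methionine sulfoxide reductase, was at 11.3, 12.0 and 7.42 CPM and then 6.27, 6.31 and 4.02 CPM, and fell by 1.07 (SE 0.27, edgeR adjusted p = 0.020). Mgst3, a microsomal glutathione transferase, was at 14.9, 11.9 and 2.98 CPM and then 2.88, 2.71 and 4.34 CPM, and fell by 2.01 (SE 0.29, edgeR adjusted p = 0.00192). In Mgst3 the library labelled WT 3 was inside the knockout range. On the other side, the thioredoxin-like gene Txnl1 was at 127, 155 and 218 CPM and then 240, 246 and 266 CPM, and rose by 0.84 (SE 0.11, edgeR adjusted p = 0.00162). Selenot, a selenoprotein of the endoplasmic reticulum, was at 24.8, 30.5 and 35.6 CPM and then 41.9, 42.4 and 45.5 CPM, and rose by 0.65 (SE 0.14, edgeR adjusted p = 0.0107).

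Cth, Gsto1 and Gstt3 were chosen after their values were seen. Cth, which makes cysteine from cystathionine in the transsulfuration pathway, was at 0.393 and 0.327 CPM in WT 1 and WT 2, at 54.8 CPM in WT 3 and at 47.3, 48.3 and 77.6 CPM in KO 1 to KO 3. It was thus close to absent in 2 libraries and well expressed in 4 (log2 difference 7.31 without WT 3, SE 0.38, edgeR adjusted p = 4.54e-05, and 1.64 with all libraries, SE 1.58, adjusted p = 0.573). Gsto1, an omega-class glutathione transferase, was at 21.5 CPM in both WT 1 and WT 2 and within 128 to 130 CPM in the other 4 libraries. Its rise of 2.59 without WT 3 (SE 0.10, edgeR adjusted p = 2.1e-05; 1.17 with all libraries, SE 0.69, adjusted p = 0.393) contrasts with the falls of Mgst3 and of Gstt3, a theta-class transferase at 11.8 and 12.1 CPM in those 2 libraries and 1.16 to 2.97 CPM elsewhere. Gstt3 fell by 2.44 without WT 3 (SE 0.39, edgeR adjusted p = 0.00306), and its difference with all libraries was -1.95 (SE 0.76, adjusted p = 0.342).

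**Figure D4:**
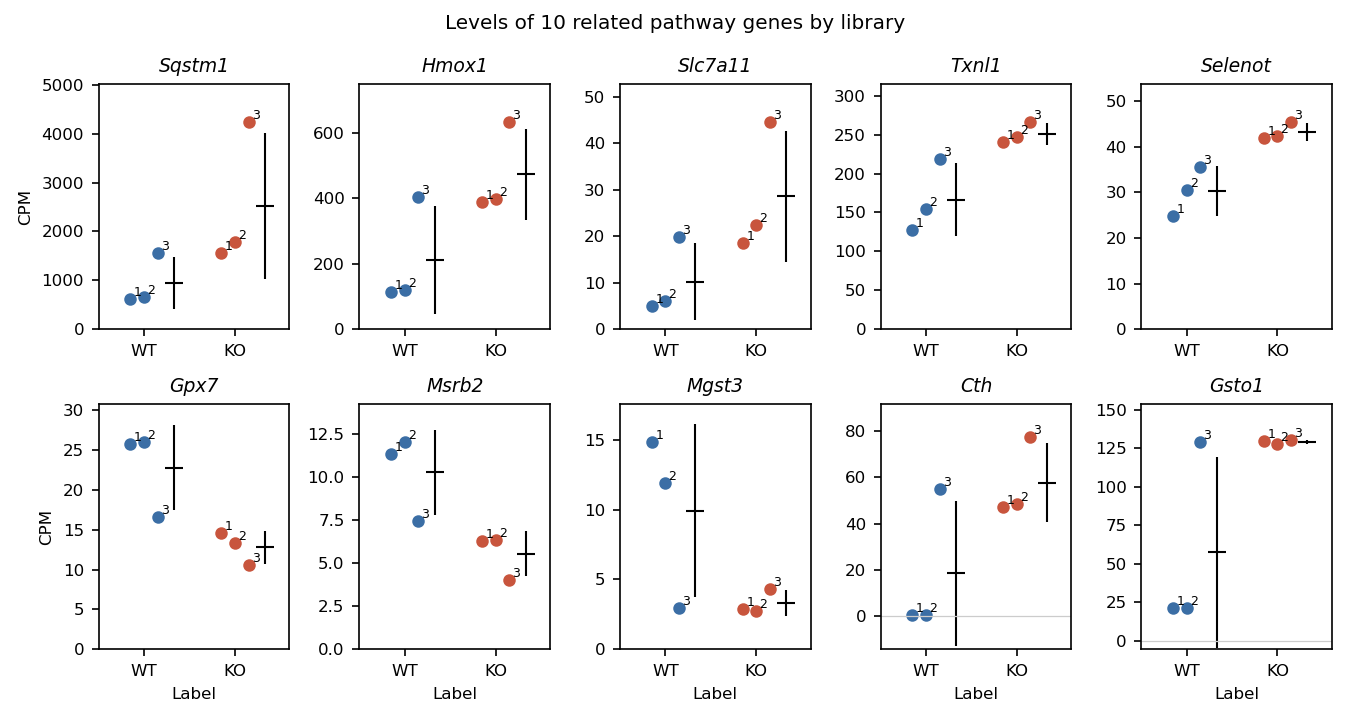
CPM of 10 related pathway genes in each library (points, numbered by replicate; blue wild-type label, red knockout label), with group mean ± SD (black, n = 3) and a linear axis. Slc7a11, Hmox1, Cth and Gsto1 are low only in WT 1 and WT 2, and Sqstm1 reaches 4242 CPM in KO 3.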

How the data were processed

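Estimated counts for 18543 genes and a normalized signal for 16322 genes were deposited by the authors. In each library the signal was found to be the count with 1 added, over a fixed factor (31.2 to 36.0). Partek, STAR, CASAVA 1.8.2 and the mm10 build appear in the submitters' processing notes without role or order. The sources used here do not give the handling of multi-mapping reads or of strand, so values of near-identical copies (the Gstm and Gstp genes, Txn1 and G6pdx with their copies) are uncertain. The same holds for members that overlap a gene whose CPM exceeds 10% of their own, among them Mafg (Sirt7), Gss (Acss2), Prdx2 (Junb, Rnaseh2a), Prdx5 (Trmt112) and G6pdx (Ikbkg). Coordinates of genes were taken from the count table, exon lengths those of GENCODE vM21.

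Estimated counts were rounded and tested on the whole table in R 4.3.3 with edgeR 4.0.16 (TMM, filterByExpr, robust glmQLFit, glmQLFTest), Benjamini-Hochberg adjustment and a threshold of 0.05. Self-checks ran on simulated data. Alternatives were DESeq2 1.42.0, limma 3.58.1 (voom, and trend on the deposited signal), other scalings, no filter, a replicate block and libraries left out. Members, lists and the choice to report fits without WT 3 were made with earlier results of these data known. All members are named. Values in every library are given for the regulators, for the 3 members of each other group with the lowest p with all libraries (all where a group has 4), and for the 6 related genes lowest in p with a mean of at least 5 CPM, plus Sqstm1, Hmox1 and Slc7a11. The fits without WT 3 by other tools, scalings or further libraries were added after the data were seen.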

Additional observations from a re-analysis of the deposited data

How the results depend on the processing

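With all 6 libraries no member passed under any other scaling, without the low-count filter, by DESeq2, limma-voom or limma-trend, or with a replicate block. The block gave 0 members, 0 related genes and 0 genes in all, while DESeq2 passed 323 genes in all. Deviations of same-numbered libraries from their group means had r = -0.037, 0.020 and -0.0078 across genes, and those of differently numbered libraries -0.015 to 0.025. As these are deviations from means of only 3 libraries, they cannot tell whether equal numbers mark a shared origin. Leaving out 1 library in turn gave 0 to 4991 genes, 0 to 23 members and 0 to 39 related genes, and every count above 0 came from leaving out WT 3. Without both libraries numbered 3 the counts were 6505, 29 and 54. Without WT 3, other tools and scalings gave 23 to 26 members, and a further library left out gave 2245 to 6505 genes, 14 to 29 members and 18 to 54 related genes. Direction changed in 6 members, none of which passed with all libraries or without WT 3. Over single libraries left out, log2 differences ranged from -0.16 to 0.026 for Keap1, -0.17 to 0.36 for Bach1, -0.15 to 0.082 for Prdx2, -0.12 to 0.036 for Prdx5, -0.0090 to 0.43 for Gsta4 and -0.33 to 0.11 for Me1. Without both libraries numbered 3 Bach1 was at -0.20 and Prdx2 at 0.10. The cause of these changes was not tested. At these depths Gsta4 and Bach1, at 2.10 to 5.17 CPM, had the lowest counts among the members.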
